A study of Mus musculus with 6 samples.

Results

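The core circadian clock loop is described here by 10 genes in mouse epididymal white adipose tissue, the visceral fat pad along the epididymis. The members were chosen by name: the activators Arntl, Clock and Npas2, and the repressors Per1, Per2, Per3, Cry1, Cry2, Nr1d1 and Nr1d2. All 10 were found among the 54356 genes of the annotation with a transcript in the files, and all 10 passed the filter on low counts that left 17852 genes. Poly(A) RNA came from 6 male wild type C57BL/6N mice aged 20 weeks, with 3 libraries labelled ctrl (mice 5, 6 and 10) and 3 labelled cold (mice 7, 12 and 16). The treatment text is the same for all 6 and gives single housing at 4 °C for 24 h, and the general housing is given as 22 to 24 °C with a light cycle of 12 h. The control temperature is therefore taken from the housing text, and no source used here says whether controls were also singly housed. The hour of the day at which each tissue was taken is likewise not stated, so a shift of clock phase between mice and a response to cold cannot be told apart.

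The mammalian clock is a transcriptional feedback loop. The protein BMAL1, encoded by Arntl, pairs with CLOCK or its relative NPAS2, and the pair binds E-box sequences and activates the Per, Cry and Nr1d genes. PER and CRY proteins then block the pair, while the nuclear receptors REV-ERB alpha and beta, encoded by Nr1d1 and Nr1d2, repress Arntl, Clock and Npas2 through ROR elements. In peripheral tissues, white fat among them, Arntl transcript and Nr1d1 transcript normally peak at opposite times of day.

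Total estimated counts ran from 19735167 to 28608052 per library. Of the 17852 genes, 516 (2.89%) passed an adjusted p under 0.05, 415 higher (2.32%) and 101 lower (0.566%) in the cold. Adipocyte markers (8 of 8 tested, among them Adipoq, Plin1 and Fabp4) summed to 32550 to 36940 CPM (counts scaled to library size, here with the trimmed mean of M-values, TMM) in controls and 33230 to 35910 in the cold. Of these 8, 2 had a higher mean in the cold, 6 had a negative log2 fold change, and in 5 the groups did not overlap (23.8% of genes). By edgeR 1 passed with a higher mean in the cold (Lep, leptin) and 1 with a lower mean (Cfd, adipsin), both named after their values were seen. Epithelial markers (12 of 12 with a higher mean in the cold, none at 0 in all libraries) summed to 19.5, 40.0 and 69.6 CPM in ctrl 6, ctrl 10 and ctrl 5, and to 193.8, 294.9 and 327 CPM in cold 7, cold 16 and cold 12. Motile cilium markers (12 of 12 found, of 14 listed, with a higher mean in the cold) went from 6.93 to 34.4 CPM in controls to 70.9 to 217.6 CPM in the cold. In bulk tissue, a change in the number of cells of a type and a change in RNA per cell cannot be told apart.

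Promoter sequences show which clock motifs lie at the start of these genes. RefSeq windows on GRCm38.p6, each running from 250 bases before a transcript start to 50 after it, were matched for 9 of the 10 members, all but Per2, with 13 windows in all. The motifs searched on both strands were the E-box CACGTG, its variant CACGTT, the ROR element (AA, any base and T, followed by AGGTCA or by GGGTCA), the D-box TTANGTAA bound by PAR-bZIP factors, and the cAMP response element TGACGTCA, and no matches overlapped each other. The 6 windows that held a match are printed 5′ to 3′ with matches in capitals, because they show where the loop's own genes match motifs of clock factors.
Arntl, chr7:113207261-113207560, plus strand: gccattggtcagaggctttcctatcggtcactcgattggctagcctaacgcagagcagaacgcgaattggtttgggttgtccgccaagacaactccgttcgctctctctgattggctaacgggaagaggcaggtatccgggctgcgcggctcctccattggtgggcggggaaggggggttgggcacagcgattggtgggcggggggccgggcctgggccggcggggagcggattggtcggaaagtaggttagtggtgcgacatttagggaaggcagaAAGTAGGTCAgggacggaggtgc
Per1, chr11:69098699-69098998, plus strand: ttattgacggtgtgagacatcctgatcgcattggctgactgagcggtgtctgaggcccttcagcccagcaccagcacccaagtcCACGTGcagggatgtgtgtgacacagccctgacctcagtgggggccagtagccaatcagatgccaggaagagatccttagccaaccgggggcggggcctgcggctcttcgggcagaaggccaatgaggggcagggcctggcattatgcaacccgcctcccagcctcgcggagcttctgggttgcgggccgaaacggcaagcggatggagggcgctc
Cry1, chr10:85185005-85185304, minus strand: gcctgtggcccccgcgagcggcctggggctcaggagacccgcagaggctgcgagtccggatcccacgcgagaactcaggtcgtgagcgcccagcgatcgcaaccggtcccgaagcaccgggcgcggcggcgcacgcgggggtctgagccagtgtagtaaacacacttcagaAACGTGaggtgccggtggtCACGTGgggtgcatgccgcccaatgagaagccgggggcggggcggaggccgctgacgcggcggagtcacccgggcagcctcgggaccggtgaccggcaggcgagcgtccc
Cry2, chr2:92434020-92434319, minus strand: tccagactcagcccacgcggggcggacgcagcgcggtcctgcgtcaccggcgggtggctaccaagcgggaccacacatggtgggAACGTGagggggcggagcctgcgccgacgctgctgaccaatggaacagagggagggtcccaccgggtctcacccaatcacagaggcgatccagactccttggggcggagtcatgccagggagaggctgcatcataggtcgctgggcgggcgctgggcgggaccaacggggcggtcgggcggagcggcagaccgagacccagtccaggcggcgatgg
Nr1d1, chr11:98775328-98775627, minus strand: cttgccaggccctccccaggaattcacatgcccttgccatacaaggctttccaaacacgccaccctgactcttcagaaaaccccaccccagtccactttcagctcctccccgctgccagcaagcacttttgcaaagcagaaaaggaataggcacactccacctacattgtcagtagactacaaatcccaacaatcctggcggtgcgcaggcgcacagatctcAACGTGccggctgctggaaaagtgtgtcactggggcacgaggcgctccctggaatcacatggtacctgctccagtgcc
Per3, chr4:151044616-151044915, minus strand: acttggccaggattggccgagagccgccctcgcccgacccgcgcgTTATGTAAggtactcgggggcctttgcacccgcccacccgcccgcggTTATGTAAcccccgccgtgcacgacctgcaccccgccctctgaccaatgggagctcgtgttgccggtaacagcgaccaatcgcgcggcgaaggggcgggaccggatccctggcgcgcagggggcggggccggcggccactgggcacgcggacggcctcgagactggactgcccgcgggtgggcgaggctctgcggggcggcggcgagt
The E-box CACGTG lay at bases 85 to 90 of the Per1 window and 191 to 196 of the Cry1 window, counted from the 5′ end, and stood in 2 of the 13 member windows against 7.15% of all 32851 windows. The variant CACGTT, read on the opposite strand as AACGTG, lay in the windows of Cry1, Cry2 and Nr1d1, against 4.68% of all windows. The AGGTCA form of the ROR element was found in 1 member window, at bases 278 to 287 of the second Arntl window, against 0.219% of all windows. The Per3 window held the D-box TTANGTAA at bases 46 to 53 and again at bases 93 to 100, against 2.32% of all windows with at least 1. The GGGTCA form of the ROR element and TGACGTCA had no match in the member windows (0.216% and 1.79% of all windows), which says only that these letters are not in them.

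Within each of the 6 libraries every repressor exceeded every activator in TPM, most narrowly Cry1 (7.96 TPM) over Clock (7.55 TPM) in cold 12. On the deposited TPM scale, which corrects for transcript length and was summed per gene, Nr1d1 was the most abundant member, at 154.7, 172.6 and 264 TPM in ctrl 5, ctrl 6 and ctrl 10 and 119.4, 165.5 and 139.3 TPM in cold 7, cold 12 and cold 16. Its control mean lay above 96.1% of the genes tested. Arntl stood at 1.13, 0.961 and 1.17 TPM in the same controls and 1.45, 2.69 and 1.83 TPM in the same cold libraries, with the control mean above 18.6% of genes. In controls the order from the top was Nr1d1, Per1 (52.8 ± 13.6 TPM), Per3 (52.7 ± 10.2), Cry2 (44.0 ± 3.68), Nr1d2 (41.7 ± 2.86), Per2 (18.0 ± 2.93), Cry1 (7.71 ± 0.661), Clock (5.73 ± 0.542), Arntl (1.09 ± 0.112) and Npas2 (0.465 ± 0.550; SD, n = 3). Neighbours from Per1 to Nr1d2, and Arntl and Npas2, overlapped in their control libraries, whereas the other neighbours did not. The cold means stood in the same order, and there only Cry2 and Nr1d2 overlapped as neighbours.

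**Figure D1:**
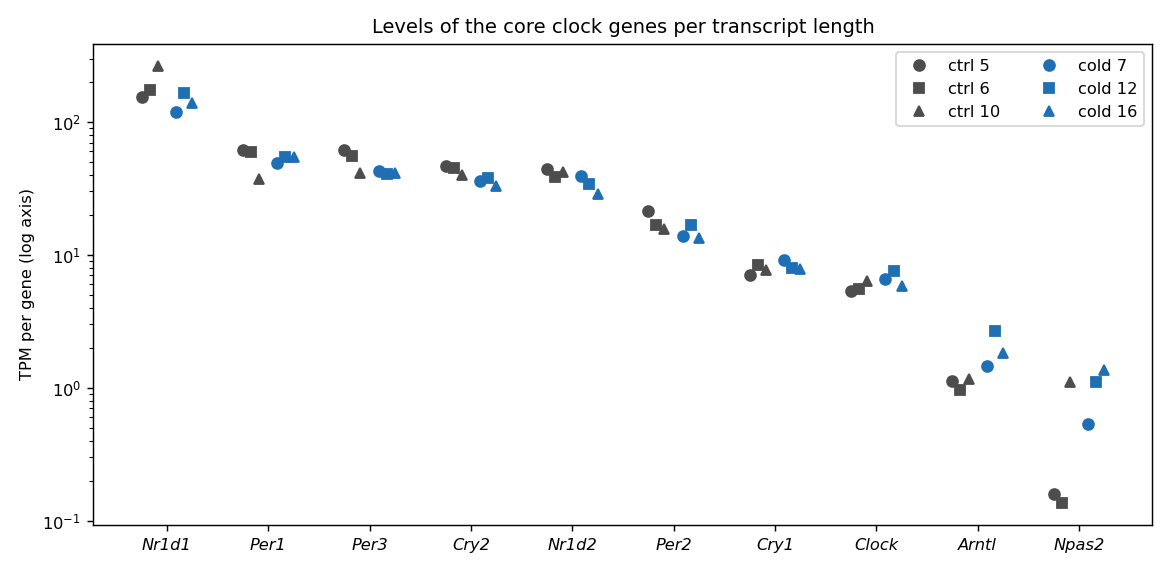
TPM per gene on a log axis for the 10 members, ordered by control mean, with 1 point per library (grey ctrl, blue cold). Nr1d1 lies above every other member in all 6 libraries, and Arntl and Npas2 lie lowest in both groups.

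The cold comparison asks whether the loop differed between the groups. No member passed over all genes by edgeR's quasi-likelihood test (background 2.89%), and the smallest adjusted p was 0.0699, for Npas2. By DESeq2, 1 member passed (Npas2, adjusted p = 0.0139), against 7.51% of genes. At an unadjusted p under 0.05 there were 6 members, against 17.6% of genes: Arntl, Clock and Npas2 with higher values in the cold (10.6% of genes) and Per3, Cry2 and Nr1d2 with lower ones (6.99%). In 5 of 10 members every cold library lay on one side of every control, against 23.8% of genes, 3 above (12.7% of genes) and 2 below (11.0%). That count is on the CPM scale: on TPM Arntl and Cry2 stayed separate, while Clock, Npas2 and Nr1d2 overlapped. The median log2 fold change was 0.91 over the 3 activators and -0.26 over the 7 repressors, against -0.01 over all genes tested.

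**Figure D2:**
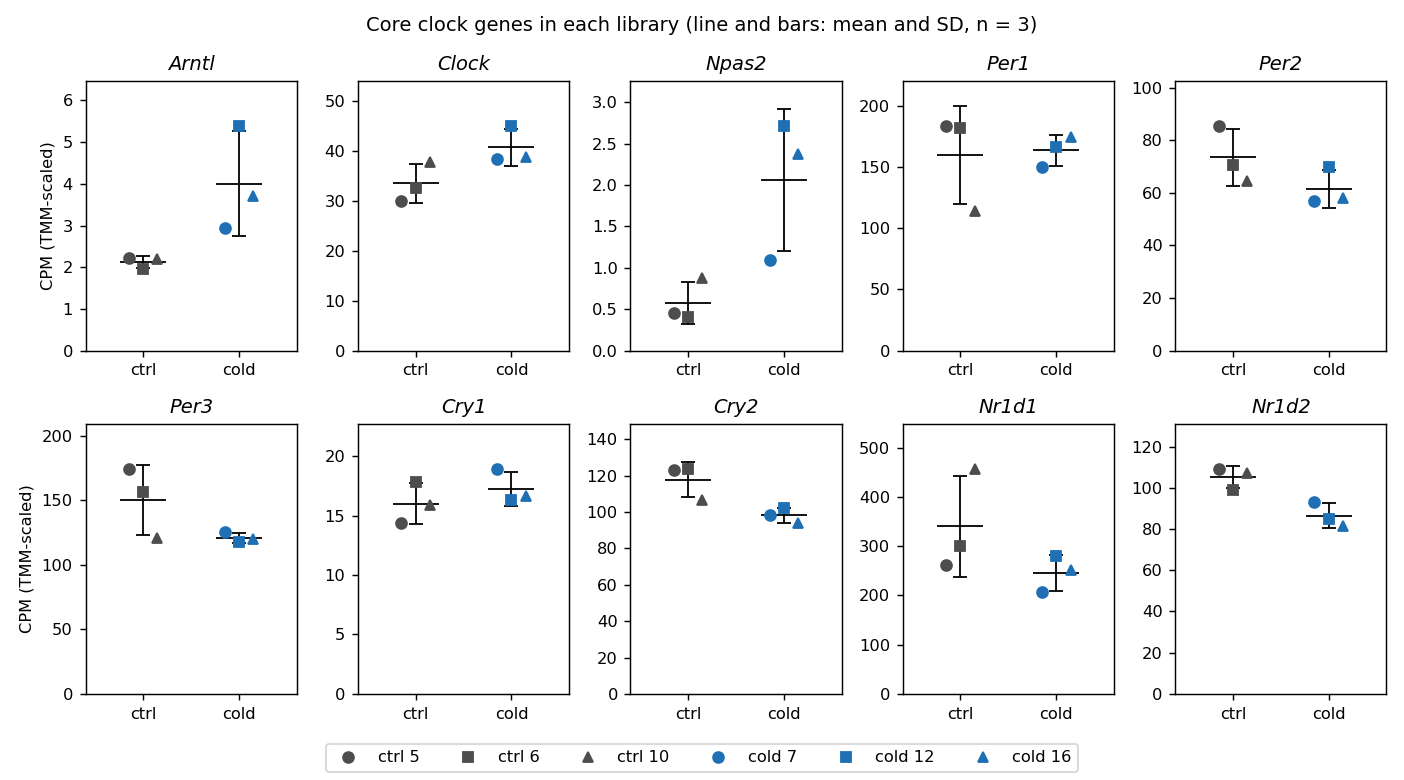
CPM of each member in each library, with the group mean and SD (n = 3) as a line and bars, each panel on its own axis from 0. Arntl, Clock and Npas2 have all cold libraries above all controls, and Cry2 and Nr1d2 have all cold libraries below them.

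Arntl encodes BMAL1, the partner that the loop cannot do without (chromosome 7, 113207465 to 113314126, GRCm38). It had 54, 44 and 43 counts in ctrl 5, ctrl 6 and ctrl 10, and 67, 137 and 106 counts in cold 7, cold 12 and cold 16. On the CPM scale these were 2.23, 1.97 and 2.21 in controls and 2.93, 5.39 and 3.70 in the cold, with controls close together and cold 12 the highest. Group means were 2.14 ± 0.146 CPM in controls and 4.01 ± 1.26 CPM in the cold (SD, n = 3 each). The fitted log2 fold change was 0.91, with an SE of 0.27 and an adjusted p of 0.113 by edgeR. Without cold 7, the lowest cold library, the change was 1.08 and passed (adjusted p = 0.0421 by edgeR), in a fit where 1090 of 18451 genes passed. Leaving out any other single library gave no pass. Without cold 12, the highest cold library, the change was 0.65 (adjusted p = 0.3145 by edgeR). The second Arntl window printed above holds a match to the ROR element, through which REV-ERB and ROR proteins are known to act.

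Npas2, the CLOCK relative that can take its place as partner of BMAL1, was the scarcest member (chromosome 1, 39193731 to 39363236). Controls had 11, 9 and 17 counts in ctrl 5, ctrl 6 and ctrl 10, and cold 7, cold 12 and cold 16 had 25, 69 and 68. These correspond to 0.454, 0.402 and 0.873 CPM against 1.09, 2.71 and 2.37 CPM, so that cold 12 and cold 16 lay well above the other libraries and cold 7 just above ctrl 10. The log2 fold change was 1.85 (SE 0.45, adjusted p = 0.0699 by edgeR), the largest of any member. It passed with no filter on low counts (adjusted p = 0.0112), by DESeq2, when cold 7 was left out (adjusted p = 0.0185) and when both ctrl 5 and cold 7 were (adjusted p = 0.0308). With an offset for transcript length it stood at 1.53 (adjusted p = 0.448 by edgeR). In ctrl 10, 4 of the 17 counts (23.5%) were assigned to Npas2-203, a transcript of 484 bases that held 79.2% of the gene's TPM. This put Npas2 at 1.10 TPM there against 0.136 and 0.159 in the other controls.

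Clock, the constitutive partner of BMAL1 (chromosome 5, 76209868 to 76304792), stood at 30.0, 32.6 and 37.7 CPM in ctrl 5, ctrl 6 and ctrl 10 and at 38.4, 44.9 and 38.7 CPM in cold 7, cold 12 and cold 16. On this scale the groups did not overlap, but ctrl 10 and cold 7 differed by less than the spread within either group. On TPM they overlapped, with cold 16 at 5.79 and ctrl 10 at 6.35. On the log2 scale the change was 0.28 (SE 0.11, adjusted p = 0.211 by edgeR).

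On the CPM scale the activators shared an order among libraries with several marker lists. In Arntl, Clock and Npas2 alike, every cold library lay above every control and the cold libraries ran from cold 7 through cold 16 to cold 12, the order of the summed epithelial and motile cilium markers given above. Summed brown adipocyte markers had it too, at 11.3 to 15.4 CPM in controls and 19.1 to 21.9 CPM in the cold. On TPM only Arntl kept it, as Clock was lowest in cold 16 among cold libraries and Npas2 highest there. In cold 16, however, 46.6% of the Npas2 TPM fell on the short Npas2-203, on 4.00 counts. On the CPM scale, that pattern of cold above control with this order of cold libraries held in 5.16% of all genes tested. No repressor had it, and the order was chosen for comparison after the values were seen. In CPM, though not in TPM, Arntl followed the epithelial order in all 6 libraries, as did 1.53% of genes. The summed epithelial markers were 193.8 CPM in cold 7 and 327 CPM in cold 12, and Npas2 was 1.09 and 2.71 CPM in the same libraries. The part of epithelial tissue, or of any other listed cell type, in the activator values was not tested. Markers of mesothelium, a tissue that shares keratins with this list, summed to 106.4 to 272.7 CPM in controls and 63.4 to 241 CPM in the cold, so they did not follow that order.

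**Figure D3:**
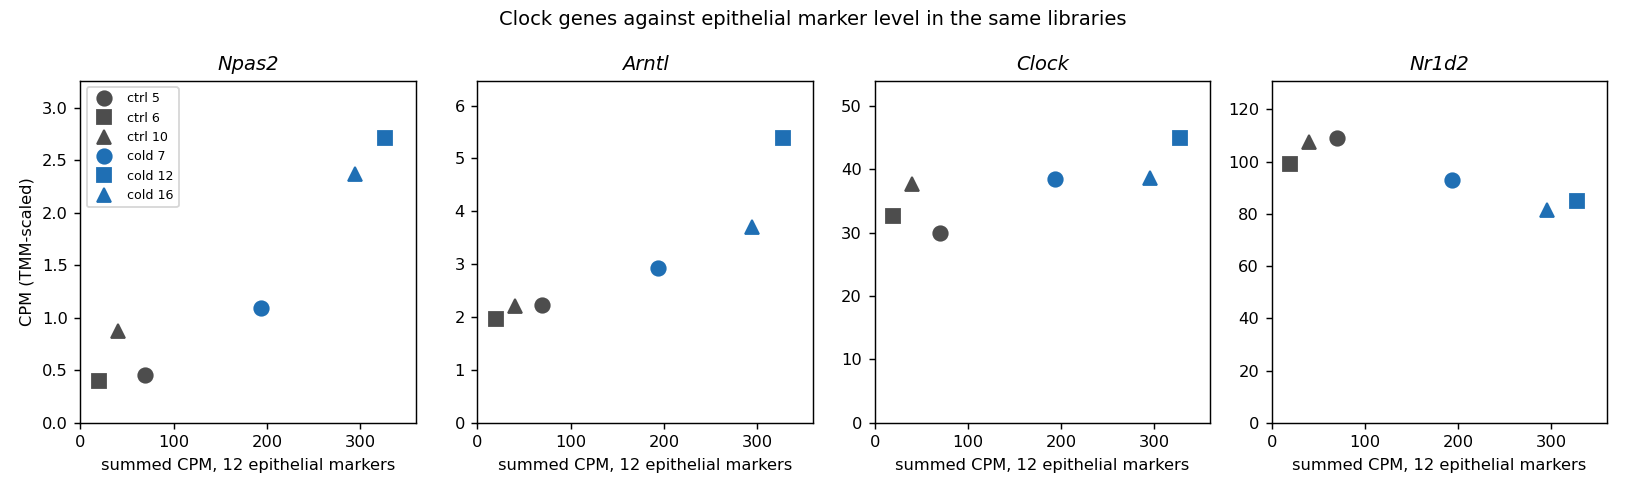
CPM of Npas2, Arntl, Clock and Nr1d2 against the summed CPM of 12 epithelial markers, 1 point per library (grey ctrl, blue cold). The 3 controls lie at 19.5 to 69.6 CPM of markers and the 3 cold libraries at 193.8 to 327, so group and marker level separate the libraries in the same way.

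Per1, which is also induced by glucocorticoids and cAMP, did not separate the groups (chromosome 11, 69095217 to 69109960). It stood at 183.5, 182.0 and 114.0 CPM in ctrl 5, ctrl 6 and ctrl 10, and at 149.7, 166.6 and 174.2 CPM in cold 7, cold 12 and cold 16. The cold libraries lay inside the control range, with ctrl 10 the lowest of all 6. Its fitted change was 0.03 on the log2 scale (SE 0.18, adjusted p = 0.955 by edgeR), and without ctrl 10 it was -0.16 (SE 0.09).

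Per2, a PER gene needed for stable rhythms (chromosome 1, 91415982 to 91459324), averaged 73.5 ± 10.7 CPM in controls and 61.5 ± 7.18 CPM in the cold (SD, n = 3 each). Values were 85.4, 70.4 and 64.6 CPM in ctrl 5, ctrl 6 and ctrl 10 against 56.7, 69.7 and 57.9 CPM in cold 7, cold 12 and cold 16, and cold 12 lay inside the control range. Its log2 fold change was -0.26 (SE 0.12, adjusted p = 0.338 by edgeR), and -0.13 without ctrl 5. Per3, a PER relative that is dispensable for the core rhythm (chromosome 4, 151003652 to 151044665), stood at 174.2, 156.8 and 121.0 CPM in the same controls. Cold values were 125.4, 117.7 and 119.9 CPM, close to ctrl 10 and below ctrl 5 and ctrl 6. The log2 fold change was -0.32 (SE 0.13, adjusted p = 0.234), and -0.19 without ctrl 5.

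Cry1 and Cry2, the cryptochromes that block the activator pair, stood apart in their values. Cry2 (chromosome 2, 92403646 to 92434043) stood at 123.0, 123.5 and 106.5 CPM in ctrl 5, ctrl 6 and ctrl 10 and at 98.2, 102.0 and 94.1 CPM in cold 7, cold 12 and cold 16, every cold library below every control. Its log2 fold change was -0.26 (SE 0.08, adjusted p = 0.127 by edgeR). Cry1 (chromosome 10, 85131700 to 85185064) stood at 14.4, 17.8 and 15.9 CPM in controls and 18.9, 16.3 and 16.6 CPM in the cold, with the groups overlapping. Its log2 fold change was 0.11 (SE 0.11, adjusted p = 0.701). Within each library the TPM ratio of Cry2 to Cry1 was 6.66, 5.40 and 5.18 in ctrl 5, ctrl 6 and ctrl 10 and 3.93, 4.77 and 4.22 in cold 7, cold 12 and cold 16, and the groups did not overlap. Cry2 shares 295 exonic bases, 4.7% of its own, with D930015M05Rik on the opposite strand.

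Nr1d1, REV-ERB alpha (chromosome 11, 98767932 to 98775333), was highest in ctrl 10. It stood at 262, 301 and 456 CPM in ctrl 5, ctrl 6 and ctrl 10 and at 207, 280.1 and 250.9 CPM in cold 7, cold 12 and cold 16. With all libraries the change was -0.46 on the log2 scale (SE 0.22, adjusted p = 0.358 by edgeR), and without ctrl 10, the highest library, it was -0.19. Nr1d1 shares 263 exonic bases, 8.5% of its own, with the thyroid hormone receptor gene Thra on the opposite strand. The libraries are strand-specific, per the labels' protocols, but no source used here says whether the counting used the strand.

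Nr1d2, REV-ERB beta (chromosome 14, 18204054 to 18239127), varied little within groups. It stood at 109.0, 98.9 and 107.3 CPM in ctrl 5, ctrl 6 and ctrl 10 and at 93.0, 85.0 and 81.4 CPM in cold 7, cold 12 and cold 16, every cold library below every control. On TPM cold 7, at 39.2, lay above ctrl 6, at 38.6. On the log2 scale the change was -0.28 (SE 0.08, adjusted p = 0.0984 by edgeR). It passed without cold 7, at -0.34 (adjusted p = 0.0486 by edgeR), where 1090 of 18451 genes passed, and without no other single library. With an offset for transcript length the change was -0.26 (adjusted p = 0.294 by edgeR).

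**Figure D4:**
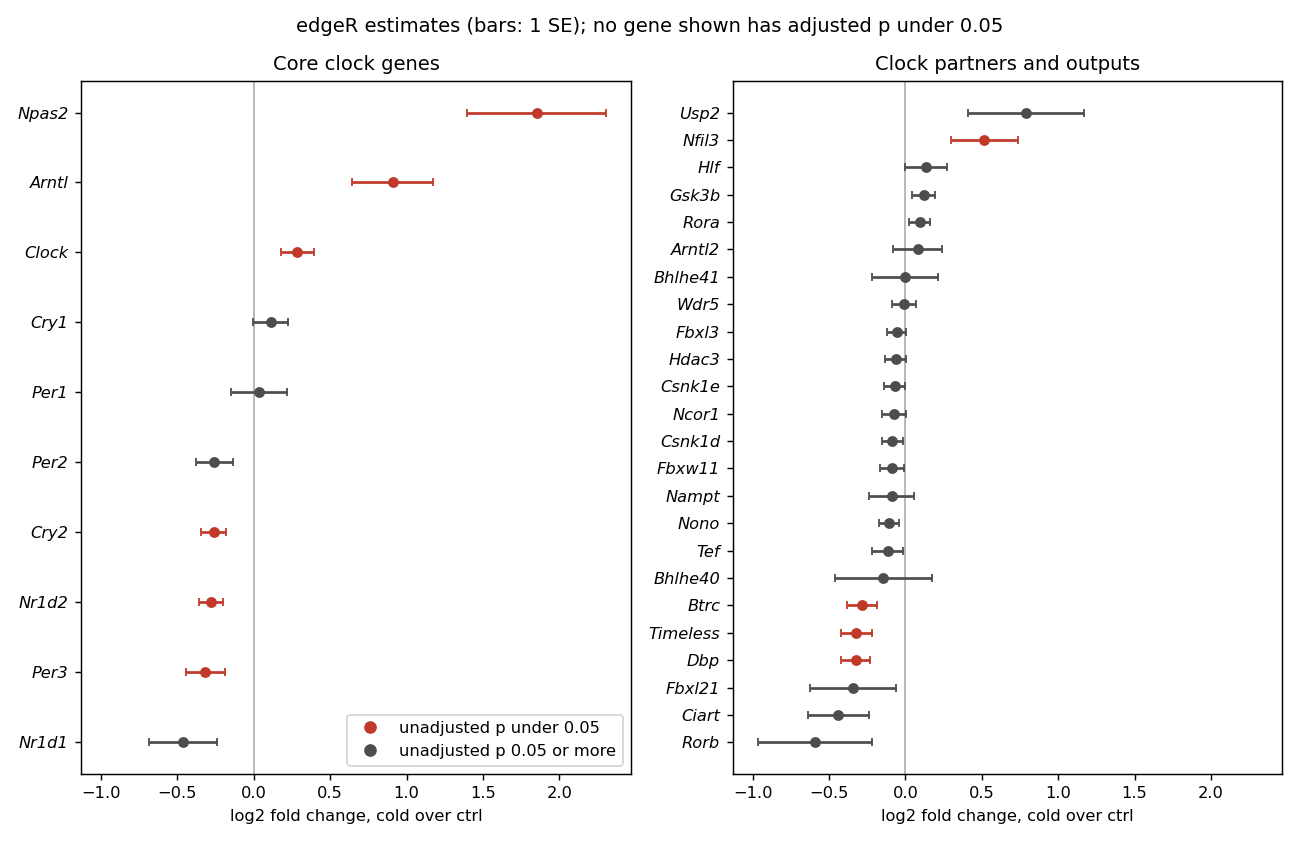
Log2 fold change of cold over ctrl with 1 SE from edgeR, for the 10 members (left) and 24 clock partners (right), with unadjusted p under 0.05 in red. Npas2 at 1.85 and Arntl at 0.91 lie to the right of all other members, and no gene drawn has an adjusted p under 0.05.

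The relation of activators to repressors was then taken within each library, where the scaling between libraries has almost no part. The mean log2(CPM + 0.5) of the 3 activators minus that of the 7 repressors was -4.62, -4.64 and -4.21 in ctrl 5, ctrl 6 and ctrl 10. It was -3.88, -3.28 and -3.50 in cold 7, cold 12 and cold 16, so every cold library lay above every control. The group means were -4.49 ± 0.24 and -3.55 ± 0.30 (SD, n = 3 each), a difference of 0.94. This is a score over chosen genes and carries no test. Without Npas2 among the activators the difference was 0.70.

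Against the PER and CRY genes alone the score was -4.34, -4.35 and -3.73 in ctrl 5, ctrl 6 and ctrl 10 and -3.61, -2.98 and -3.22 in cold 7, cold 12 and cold 16. Here ctrl 10 lay closer to cold 7 than to the other controls. That separation is on the CPM scale. On TPM, Npas2 stood at 1.10 in ctrl 10 and 0.537 in cold 7, and ctrl 10 lay above cold 7 in this score. Against the REV-ERB genes alone it was -5.30, -5.37 and -5.41 in the controls (SD 0.05), and -4.55, -4.03 and -4.20 in the cold. In ctrl 10 the PER and CRY genes were on average lower relative to the activators than in the other controls, and the REV-ERB genes were not.

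Arntl and Nr1d1, at opposite arms of the loop, gave the largest difference of group means of the 4 scores. It was 1.17, against 0.87 for PER and CRY genes and 1.10 for REV-ERB genes. Nr1d1 exceeded Arntl 136.5-fold, 179.6-fold and 225.7-fold in TPM in ctrl 5, ctrl 6 and ctrl 10, and 82.4-fold, 61.6-fold and 76.0-fold in cold 7, cold 12 and cold 16. The ratio of Per2 to Arntl, also on the TPM scale, was 18.8, 17.6 and 13.4 in controls and 9.51, 6.27 and 7.26 in the cold, again without overlap. The groups overlapped for Per1 to Arntl, at 31.75 in ctrl 10 and 34.12 in cold 7. They also overlapped for Cry1 to Arntl, at 6.222 in ctrl 5 and 6.337 in cold 7. Clock to Arntl, both of them activators, did not overlap, at 4.706, 5.726 and 5.42 in controls and 4.533, 2.811 and 3.159 in the cold. All these ratios share the Arntl values, which were themselves separate between the groups on TPM, so they are not independent of each other. Per1 to Nr1d1, both of them repressors, was 0.398, 0.345 and 0.141 in controls and 0.414, 0.329 and 0.393 in the cold, with ctrl 10 alone below the rest. Each repressor exceeded Arntl in TPM in every library, the smallest ratio being 2.97 for Cry1 in cold 12.

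**Figure D5:**
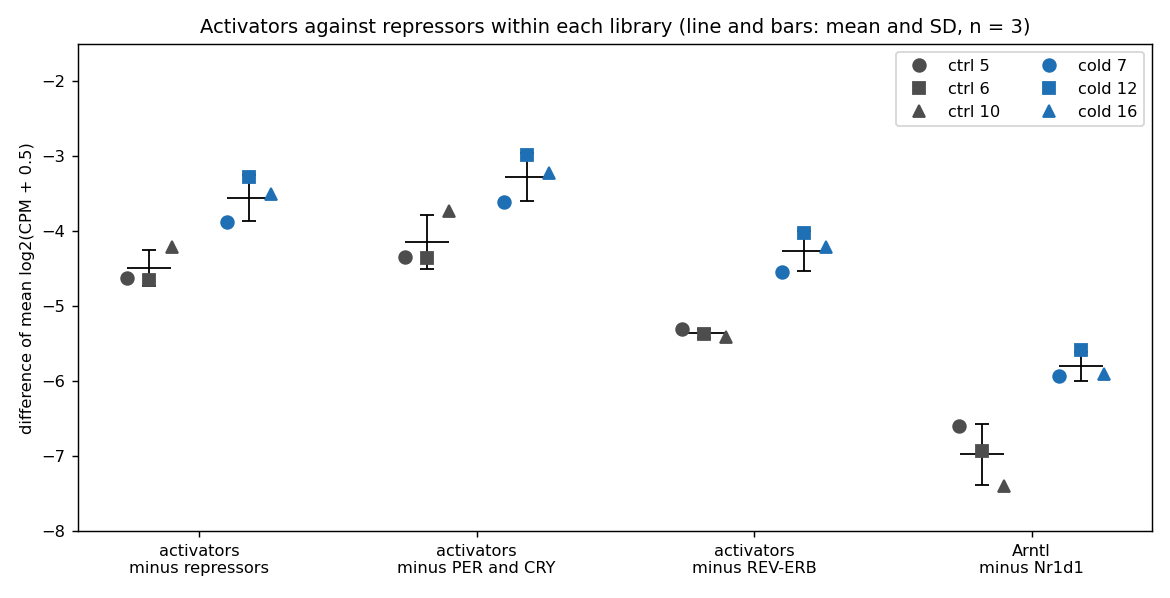
Difference of mean log2(CPM + 0.5) between activators and repressors within each library, with group mean and SD (n = 3), for all repressors, PER and CRY genes, REV-ERB genes, and Arntl against Nr1d1. On this CPM scale the 3 cold libraries lie above the 3 controls in each score. The difference of group means is smallest for PER and CRY genes, where ctrl 10 stands at -3.73 and cold 7 at -3.61.

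The transcripts of the members were read next. Of 42 transcripts in the files 22 were tested and none passed by edgeR (0 of 42984 transcripts over the whole table, 0.0%; 8.15% at an unadjusted p under 0.05), with 6 member transcripts at an unadjusted p under 0.05 and a smallest adjusted p of 0.283. Per2, Cry1, Cry2, Nr1d1 and Nr1d2 each had at least 96.5% of their counts on 1 coding transcript in every library. Per3 did not: its largest share, 53.7 to 67.0%, fell on Per3-204, a processed transcript of 7 exons and 3663 bases without an annotated reading frame. The coding Per3-201, of 21 exons and 5999 bases, took 39.5, 31.2 and 38.2% in ctrl 5, ctrl 6 and ctrl 10 and 38.7, 38.0 and 26.1% in cold 7, cold 12 and cold 16. In each library Per3-201 thus held a smaller share of the gene's counts than Per3-204.

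Per1 counts were divided between Per1-201, with 73.4 ± 10.3% in controls and 63.6 ± 5.10% in the cold, Per1-203 with 13.2 ± 9.13% and 22.3 ± 4.99%, and Per1-202 with 13.3 ± 1.14% and 13.3 ± 1.24% (SD, n = 3 each). The groups overlapped in all of these shares. Clock-205, the longest Clock transcript at 9744 bases, took 88.5, 89.6 and 94.5% in ctrl 5, ctrl 6 and ctrl 10 and 91.8, 96.4 and 98.9% in cold 7, cold 12 and cold 16. The shorter Clock-201 took most of the rest. Npas2-201, of 21 exons and 4236 bases, took all Npas2 counts in ctrl 5 and ctrl 6, 76.5% in ctrl 10, and 96.0, 98.4 and 94.1% in cold 7, cold 12 and cold 16, and its log2 fold change was 1.98 (SE 0.46, adjusted p = 0.283 by edgeR). Arntl-201 took 89.5 to 97.7% in 5 libraries but 40.0% in ctrl 10, where 44.6% went to Arntl-203 and 13.1% to Arntl-204, on 43 counts in all.

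Other genes of the clock were 24 partners, all of which passed the filter on low counts. None passed over all genes by edgeR (2.89% of genes did), 4 had an unadjusted p under 0.05 (17.6% of genes), and the median log2 fold change was -0.08. By DESeq2, 1 of the 24 passed (Dbp, adjusted p = 0.0269), against 7.51% of genes. Among 7 output factors, Dbp, the PAR-bZIP activator that binds D-boxes such as those in the Per3 window, stood at 337.8, 279.5 and 301.9 CPM in ctrl 5, ctrl 6 and ctrl 10 and at 240.5, 229.0 and 263.8 CPM in cold 7, cold 12 and cold 16. Every cold library lay below every control, and the change was -0.33 on the log2 scale (SE 0.09, adjusted p = 0.111 by edgeR). Nfil3, which represses through the same D-boxes, was at 0.52 (SE 0.22, adjusted p = 0.261), with ctrl 5 inside the cold range.

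Among the kinases, ubiquitin ligases and protease that act on PER and CRY proteins, the ligase subunit Btrc was at -0.28 (SE 0.10, adjusted p = 0.174) and the kinase Gsk3b at 0.12 (SE 0.08, adjusted p = 0.485). Usp2, a rhythmic deubiquitinase, stood at 45.8, 45.2 and 17.5 CPM in ctrl 5, ctrl 6 and ctrl 10 and at 53.7, 60.2 and 74.3 CPM in cold 7, cold 12 and cold 16. The log2 fold change of Usp2 was 0.79 (SE 0.38, adjusted p = 0.378), with ctrl 10 far below every other library, and 0.47 without ctrl 10. Among further loop factors, Timeless was at -0.32 (SE 0.10, adjusted p = 0.141), the BMAL1-CLOCK repressor Ciart at -0.44 (SE 0.20, adjusted p = 0.315; -0.69 and 0.0955 without cold 16) and Nono at -0.11 (SE 0.07, adjusted p = 0.481). Rora and Rorb, which compete with REV-ERB proteins at ROR elements, and the corepressor subunits Ncor1 and Hdac3 had no gene at an unadjusted p under 0.05 by edgeR, and the smallest adjusted p among these 4 was 0.488.

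The genes nearest to 3 members were found over all 6 libraries, by the root mean square difference of log2(CPM + 0.5) centred on each gene's mean. The candidates were 11105 tested genes averaging 5 CPM or more, without symbols of predicted, clone, mitochondrial, microRNA or pseudogene type. Arntl itself, at 2.14 CPM in controls and 4.01 CPM in the cold, lay below that level. Nearest to Arntl were Fxyd2, a sodium pump regulator (difference 0.07), the phosphatase Cdc14a (0.08) and the centriole protein gene Ccp110 (0.08). Fxyd2 stood at 7.27, 6.44 and 6.83 CPM in ctrl 5, ctrl 6 and ctrl 10 and at 8.62, 14.8 and 12.1 CPM in cold 7, cold 12 and cold 16. Nearest to Per1 were Sncaip (0.05), the anion exchanger Slc26a6 (0.06) and Ccdc85a (0.08), each lowest in ctrl 10. Nearest to Nr1d1 were the differentiation inhibitor Id1 (0.12), Rassf9 (0.12) and the endothelial chaperone Hspa12b (0.13), each highest in ctrl 10. Id1 stood at 56.9, 53.5 and 81.3 CPM in ctrl 5, ctrl 6 and ctrl 10 and at 38.4, 46.2 and 46.5 CPM in cold 7, cold 12 and cold 16.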

How the data were processed

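The submitters' processing notes name bcl2fastq, cutadapt, Salmon and the build GRCm38, and no source used here gives versions or settings. Per the file headers, each library has a deposited Salmon table of 140658 transcripts with estimated counts, TPM and effective lengths, the last used only for an offset. The authors' estimated counts divide each read among the transcripts it fits. Of the transcripts, 140137 were joined to GENCODE M21 (GRCm38), and the rest, 0.124 to 0.394% of counts, were left out. Estimated counts were summed per gene and rounded.

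In R 4.3.3, edgeR 4.0.16 was used with filterByExpr (minimum count 10, total 15), TMM, robust glmQLFit and a two-sided glmQLFTest of cold against ctrl, with Benjamini-Hochberg adjustment over all genes or transcripts and calls under 0.05. SEs come from the F statistic. The p-values measure the spread between separate mice, as the mouse numbers give them. An exact permutation test of 3 against 3 cannot go below 0.1. Alternatives were RLE, no filter, a length offset, DESeq2 1.42.0, and leaving out libraries. On simulated data of cold against ctrl (17530 genes), 28% of genes changed 1.5-fold and 78% changed 2-fold were recovered, with 7.10% of calls false.

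Members and lists were chosen with earlier results of these data known. Named were all members, the 8 partners with the smallest p, the 3 nearest genes to Arntl, Per1 and Nr1d1, and transcripts with at least 10 percent of a member. One listed partner is not reported here. The comparison with the epithelial order was chosen after the values were seen. Other marker lists were summed too: endothelium 1495 to 1595 CPM in controls and 1258 to 1395 in the cold, macrophage 954.5 to 1072 and 678 to 1196, lymphocyte 12.5 to 21.7 and 10.0 to 16.8, and stroma 2429 to 3310 and 2412 to 4099. Epididymis and seminal vesicle markers (2 of 14 tested, Lcn9 at 0 throughout) summed to 12.1, 1.79 and 176.8 CPM in ctrl 5, ctrl 6 and ctrl 10. In cold 7, cold 12 and cold 16 they summed to 222.6, 68.9 and 73.25 CPM, so cold 7 and ctrl 10 were highest.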

Additional observations from a re-analysis of the deposited data

How the results depend on the processing

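The number of members passing was 0 by edgeR and stayed 0 with RLE factors and with the transcript length offset. It was 1 with no filter on low counts, 1 by DESeq2 and 1 without ctrl 5 and cold 7 together (Npas2 in each), and 0 to 3 with 1 library left out, the 3 without cold 7 being Arntl, Npas2 and Nr1d2. Over all genes 516 of 17852 passed by edgeR (2.89%). With no filter 924 of 34880 passed, by DESeq2 1340 of 17846 (7.51%), and without ctrl 5 and cold 7 together 1230 of 18154. With 1 library left out the number ran from 0 to 1090. It was 0 without ctrl 6, ctrl 10 or cold 12, 3 without cold 16, 695 of 18516 without ctrl 5 and 1090 of 18451 without cold 7. Transcripts passing were 0, and 8 with no filter. The cause of these differences was not tested.

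Of 198 alternative values for the 18 clock genes named, 187 kept direction and side of the threshold, 8 newly passed and 3 changed sign. Per1 ran from -0.16 to 0.15 with 1 library left out, negative without ctrl 10 (-0.16) and without cold 16 (-0.02), and was 0.21 without ctrl 5 and cold 7. Cry1 was -0.027 without ctrl 5 and cold 7, and 0.04 to 0.20 with 1 library left out. Newly passing partners were Dbp by DESeq2 (-0.32) and Nfil3 without ctrl 5 and cold 7 (0.87). The activator to repressor difference of 0.94 ran from 0.67 with log2(CPM + 2) to 1.10 without cold 7, and was 0.73 on TPM. No paired analysis was possible because the mouse numbers differ between groups. With 43 to 137 counts for Arntl and 9 to 69 for Npas2, these activators have the largest relative counting error of the members, and read sharing between transcripts is not modelled in the p-values.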
